A study of Mus musculus with 2 samples.

Results

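The 9 genes described here encode parts of the epithelial basement membrane, the integrins that grip it, 2 matrix proteins of injured tissue, and the urokinase pair that starts plasminogen activation on the cell surface. They are Itgb6, Itga6, Itgb4, Lama3, Lamb3, Thbs1, Fn1, Plaur and Plau, 9 of the 28692 genes listed for both libraries, and all 9 were found by symbol. The cells came from C57BL/6 mouse lung and were sorted by flow cytometry as Epcam+, a surface protein of epithelium, before 10x Chromium 3' library construction, in which each molecule of RNA is counted once as a unique molecular identifier (UMI). One library came after injury with NAPH, an agent that the labels do not spell out, and the other was labelled Control. The labels give no dose, no time after injury, and no sex, age or number of animals, and there was 1 library in each group. The difference between the libraries therefore has no replicate check, no p-value is given, and every interval below is an exact Poisson or binomial interval at 95% that covers counting error only.

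Lama3 and Lamb3 encode chains of laminin-332, the anchoring laminin of epithelial basement membranes, and integrin alpha6beta4 (Itga6 and Itgb4) binds it at hemidesmosomes. Integrin alphavbeta6 pairs the Itgb6 chain with the Itgav chain, binds fibronectin, and releases active TGF-beta from its latent complex. Thrombospondin-1, the product of Thbs1, is a secreted glycoprotein that can also activate latent TGF-beta, and Fn1 encodes fibronectin, the main provisional matrix protein of wounds. Plau encodes urokinase, a protease that converts plasminogen to plasmin, and Plaur encodes its cell-surface receptor. In lung, alveolar type 2 (AT2) cells secrete surfactant and renew the alveolus, club cells are the secretory cells of small airways, and basal cells are the stem cells that hold hemidesmosomes on the airway basement membrane.

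On GRCm38 (GENCODE vM21) Itgb6 spans chr2:60598292-60722643 on the minus strand, Itga6 chr2:71745616-71858416 and Thbs1 chr2:118111876-118127133 on the plus strand, and Itgb4 chr11:115974709-116008412 on the plus strand. Lamb3 spans chr1:193207699-193343878 on the plus strand and Fn1 chr1:71585520-71653200 on the minus strand. Plaur spans chr7:24462484-24475968 and Plau chr14:20836660-20843385, both on the plus strand. All 9 are protein-coding. The annotation marks Itga6, Lama3 and Lamb3 as overlapping other loci, and no source used here says how reads in such overlaps were assigned.

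Of the 9 genes, 3 matched the RefSeq promoter table (GRCm38.p6): Plaur, Itgb6 and Lamb3. All 3 are shown. Their steps between the 2 kinds of AT2 cell in NAPH were 25.2 times for Plaur, 2.86 for Itgb6 and 0.908 for Lamb3. Thbs1, with a step of 12.3 times, was not matched. Each line gives the bases before the first listed start site, 5′ to 3′ on the gene's strand, cut where an annotated exon of the gene begins, and capitals mark a match to the AP-1 motif TGANTCA.
Plaur, chr7:24462233-24462482, plus strand: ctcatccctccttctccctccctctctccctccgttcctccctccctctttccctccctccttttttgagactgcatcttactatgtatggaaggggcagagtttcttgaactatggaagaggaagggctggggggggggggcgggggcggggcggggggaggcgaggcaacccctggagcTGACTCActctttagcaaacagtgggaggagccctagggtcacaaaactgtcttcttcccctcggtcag
Itgb6, chr2:60722644-60722853, minus strand: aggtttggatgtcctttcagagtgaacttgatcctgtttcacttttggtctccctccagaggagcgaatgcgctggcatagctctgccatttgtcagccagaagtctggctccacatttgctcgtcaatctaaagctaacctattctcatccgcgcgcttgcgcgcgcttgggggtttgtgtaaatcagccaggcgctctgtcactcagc
Lamb3, chr1:193301744-193301992, plus strand: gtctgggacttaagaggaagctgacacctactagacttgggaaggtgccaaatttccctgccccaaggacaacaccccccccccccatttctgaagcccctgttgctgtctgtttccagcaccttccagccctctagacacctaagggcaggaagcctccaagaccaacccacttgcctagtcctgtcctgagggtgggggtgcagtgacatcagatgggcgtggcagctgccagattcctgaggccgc
In the 250 bases before the start site, Plaur held 1 match to TGANTCA, which begins 69 bases before the start, and 3 matches to GGGCGG, the core of an Sp1 box, none of which overlaps the AP-1 match. The windows of Itgb6 and Lamb3 held no match to either motif, also at their second listed start sites. Both strands were searched. Of 32851 promoter windows of the same length, 6.75% held TGANTCA and 32.7% held GGGCGG. A match is a description of letters and not of binding.

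Cells were pooled by marker RNA per 10,000 UMIs of the cell. AT2 cells had Sftpc (surfactant protein C) of at least 500 and were split by the sum of Areg and Sprr1a, an EGFR ligand and a cornified envelope protein, at 5. Secretory cells had Scgb1a1 of at least 1000, ciliated cells had Foxj1, Ccdc153 and Tmem212 of at least 10 in sum, and basal cells had at least 3 UMIs of Krt5 and Krt14. An immune gate served to show free RNA. The NAPH and Control libraries held 155 and 27 Areg/Sprr1a-high AT2 cells, 2360 and 1773 other AT2 cells, 197 and 757 secretory, 204 and 193 ciliated, 20 and 7 basal, and 502 and 449 immune cells, and 150 and 16 cells lay in no gate. Areg/Sprr1a-high cells were 6.16% of AT2 cells in NAPH (5.26 to 7.18%) and 1.5% in Control (0.991 to 2.18%). The median depth differed between libraries, with 8068 UMIs per cell in NAPH and 5339 in Control for ciliated cells, and 22537 and 29252 for secretory cells. Levels are therefore given per 10,000 UMIs, and shares of cells with a UMI after thinning every cell to 3500 UMIs unless called unthinned.

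The gates held the markers of their names, with exceptions. The 8 AT2 markers summed to 794 and 699 per 10,000 UMIs in Areg/Sprr1a-high AT2 cells of NAPH and Control, and to 860 and 893 in other AT2 cells. Immune markers in those 4 pools lay between 0.0825 and 0.350, against 59.6 and 58.0 in immune cells. The secretory gate was not alike in the 2 libraries. Its 6 club markers summed to 531 in NAPH and 278 in Control, its 6 goblet markers to 307 and 105, its 8 AT2 markers to 200 and 76.8, and its 8 AT1 markers to 12.46 and 3.43, with no AT2 or AT1 marker at 0. These sums have no median taken off, and the gate gene Scgb1a1 stood at 3503 in NAPH and 5961 in Control. Of the club markers, Scgb3a2 (404 and 149), Hp and Gabrp were higher in NAPH. Cyp2f2 (32.0 and 58.0), Aldh1a1 (7.70 and 10.3) and Cckar (0.966 and 1.075) were lower in NAPH. Of the AT2 markers, Slc34a2 stood at 3.48 in NAPH secretory cells and 0.678 in Control ones and Lamp3 at 0.848 and 0.170. The part of AT2 RNA in the secretory ratios given below was not tested. The basal gate was also not alike in the 2 libraries, since the 6 basal markers summed to 12.8 in NAPH and 60.6 in Control, club markers to 93.0 and 46.9, and Krt14 had 90 UMIs in NAPH and 0 in Control. Dcn, a fibroblast gene, had 21 UMIs in NAPH basal cells and 70 in Control basal cells, while the other 5 fibroblast markers were at 0 there. Values of basal cells rest on few cells and their part in any difference between libraries was not tested. Sftpc in immune cells, which should lack it, stood at 2.12% of its level in other AT2 cells in NAPH and at 0.893% in Control. Scgb1a1 in immune cells went the other way, at 0.766% of its level in secretory cells in NAPH and 2.31% in Control.

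**Figure D1:**
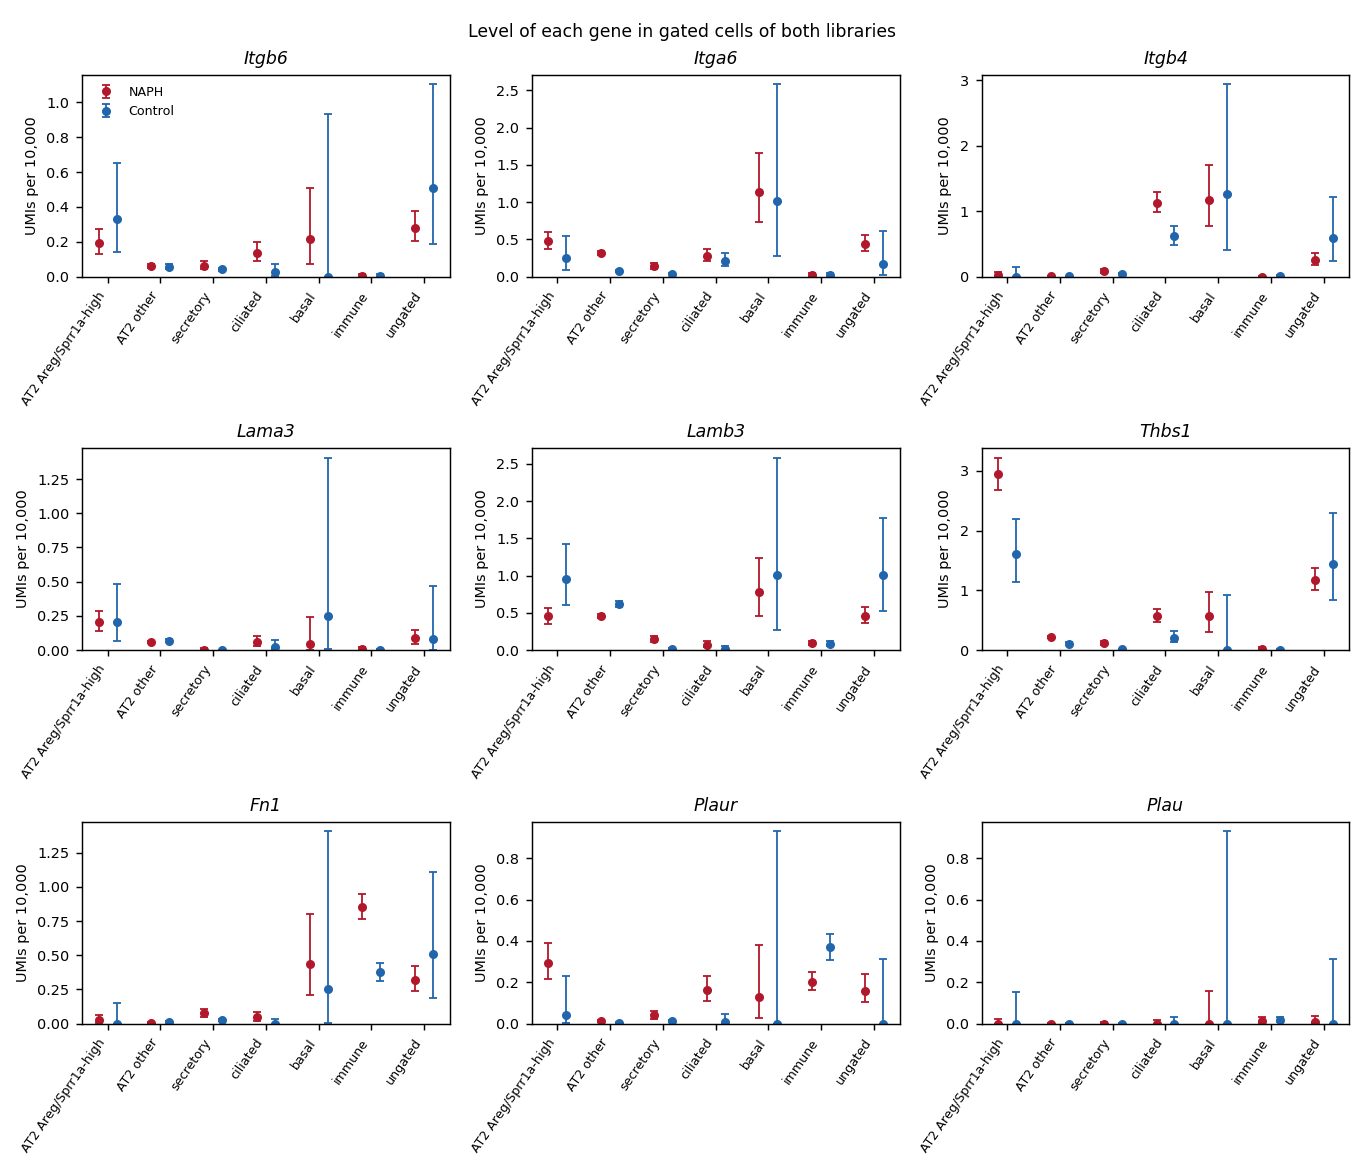
Level of each of the 9 genes in UMIs per 10,000 (linear axis from 0), by gate, with NAPH (red) left of Control (blue). Points are pooled levels and bars are exact 95% Poisson intervals of 1 library each. Thbs1 stands highest in Areg/Sprr1a-high AT2 cells of both libraries, at 2.94 and 1.61, and Fn1 in immune cells of NAPH, at 0.852.

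Of the laminin-332 chains, Lama3 went with the Areg/Sprr1a-high AT2 cells of both libraries and Lamb3 differed between libraries in a direction that depended on the gate. Lama3, the alpha chain, lay at 0.204 UMIs per 10,000 in NAPH Areg/Sprr1a-high AT2 cells and 0.206 in Control ones, and at 0.0581 and 0.0692 in other AT2 cells of NAPH and Control. The high AT2 cells were thus 3.23 times (2.12 to 4.77) above the other AT2 cells in NAPH and 2.98 times (0.947 to 7.20) in Control, where the high cells had 5 UMIs. Secretory cells had 1 Lama3 UMI in each library, or 0.00223 and 0.000480 per 10,000. Between libraries the AT2 pools did not differ by 1.5 times, with a NAPH over Control ratio of 0.841 (0.643 to 1.10) in other AT2 cells.

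Lamb3, the beta chain, was lower in NAPH than in Control among Areg/Sprr1a-high AT2 cells and higher in NAPH among secretory cells. It had 0.452 UMIs per 10,000 in NAPH Areg/Sprr1a-high AT2 cells and 0.949 in Control ones, a ratio of 0.476 (0.294 to 0.799), and 0.459 and 0.618 in other AT2 cells, a ratio of 0.742 (0.678 to 0.812) that is under the 1.5 times used for a call. The levels of the high cells rest on 71 UMIs in NAPH and 23 in Control, and 5 cells held 69.6% of the Control ones. After thinning, 14.2% (9.11 to 20.7%) of high cells in NAPH and 18.5% (6.30 to 38.1%) in Control had a Lamb3 UMI. In secretory cells Lamb3 had 65 UMIs in NAPH and 34 in Control, levels of 0.145 and 0.0163. Relative to the median of all genes, which was itself 1.53 times higher in NAPH secretory cells, this was 5.80 times (3.77 to 9.06) higher in NAPH. That median was 0.61 on the log2 scale, and -0.084 with gate genes, Scgb1a1 among them, and mitochondrial genes left out of the totals. With no median taken off, the Lamb3 ratio was 8.86. The 8 AT2 markers, also with no median taken off, summed to 200 in NAPH secretory cells and 76.8 in Control ones. Sftpa1 alone gave 121 and 47.9 of these sums. Lamb3 was more abundant in AT2 cells, and the part of AT2 RNA in its secretory ratio was not tested. In ciliated cells Lamb3 had 14 UMIs in NAPH and 2 in Control. Lamb3 also had 38 UMIs in NAPH immune cells and 33 in Control immune cells, levels of 0.0907 and 0.0876, which exceeded its levels in NAPH and Control ciliated cells of 0.0708 and 0.0169 and its level in Control secretory cells. The immune levels of Lamb3 were 11.6% of its highest epithelial level, that of basal cells, in NAPH and 8.68% in Control. For Sftpc the immune level was 2.12% and 0.893% of that in other AT2 cells. Whether the immune-gate counts are free RNA was not tested. Lamb3 is also marked as overlapping another locus, and the part of such reads in its counts was not tested. Within NAPH the high and the other AT2 cells had like levels of Lamb3, with a ratio of 0.908 (0.704 to 1.16). Within Control the ratio was 1.54 (0.968 to 2.32), a log2 ratio of 0.62 that was -0.011 after thinning and reached 1.5 times in 5 of 13 settings. In NAPH AT2 cells with Areg and Sprr1a at 15 or more, Lama3 stood at 0.248 and Lamb3 at 0.608, against 0.0503 and 0.485 in cells with neither.

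Itga6, the laminin-binding alpha6 chain, showed the largest difference between libraries of the 8 genes counted in other AT2 cells. Other AT2 cells had 740 Itga6 UMIs in NAPH and 111 in Control, levels of 0.316 and 0.0792, a ratio of 4.0 (3.27 to 4.92). After thinning, 9.92% of these NAPH cells (8.74 to 11.2%) and 1.97% of the Control cells (1.38 to 2.74%) had a UMI, against 0.598% and 0.668% of immune cells, and the unthinned shares were 23.5% and 5.87%. Itga6 was also 2.45 times (1.73 to 3.46) higher in NAPH secretory cells, with levels of 0.140 in NAPH and 0.0374 in Control. In ciliated cells it was 0.283 in NAPH and 0.212 in Control, a ratio of 1.24 (0.759 to 2.07). Basal cells had the highest levels, 1.13 in NAPH (0.738 to 1.66) and 1.01 in Control (0.275 to 2.58), on 26 and 4 UMIs. The high AT2 cells of NAPH had 0.477 against 0.316 in the other AT2 cells, a ratio of 1.39 (1.08 to 1.76), and those of Control had 0.248 against 0.0792, a ratio of 3.13 (1.12 to 7.03) on 6 UMIs in the high cells.

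Itgb4, the beta4 chain that pairs with alpha6, was highest in basal and ciliated cells. It lay at 1.17 in NAPH basal cells (0.774 to 1.71) and 1.26 in Control basal cells (0.410 to 2.94), and at 1.13 in NAPH ciliated cells (0.990 to 1.29) and 0.619 in Control ciliated cells (0.485 to 0.778). Other AT2 cells had 16 Itgb4 UMIs in NAPH and 11 in Control, levels of 0.00684 and 0.00784, close to the 0 and 0.00531 of immune cells. The NAPH over Control ratio of Itgb4 in other AT2 cells was 0.872 (0.380 to 2.08). Secretory cells had 0.0801 in NAPH and 0.0398 in Control, far below the other airway gates, a ratio of 1.32 (0.864 to 1.97). In ciliated cells Itgb4 was 1.69 times (1.30 to 2.24) higher in NAPH. After thinning 33.3% of NAPH ciliated cells (26.9 to 40.3%) and 20.2% of Control ciliated cells (14.8 to 26.6%) had a UMI.

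Itgb6, the TGF-beta-activating chain, had 30 UMIs in NAPH Areg/Sprr1a-high AT2 cells and 8 in Control ones, levels of 0.191 and 0.330. Other AT2 cells had 0.0616 in NAPH and 0.0571 in Control, a ratio of 1.08 (0.815 to 1.44). The high cells were 2.86 times (1.86 to 4.26) above the others in NAPH and 5.79 times (2.42 to 12) in Control, where 6 of the 8 UMIs lay in 4 cells with Areg and Sprr1a of 15 or more. Ciliated cells had 27 UMIs in NAPH and 3 in Control, levels of 0.137 and 0.0254, which was 4.97 times (1.53 to 25.6) higher in NAPH. Secretory cells had 28 and 87 UMIs, a ratio of 0.976 (0.614 to 1.51). Itgav, the partner chain, was 2.57 times (2.08 to 3.15) higher in high than in other AT2 cells of NAPH and 2.71 times (1.46 to 4.62) in Control.

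Thbs1 had the largest step across the Areg and Sprr1a split of the members with 10 UMIs in both libraries. It had 462 UMIs in 155 high AT2 cells of NAPH and 39 in 27 high AT2 cells of Control, levels of 2.94 and 1.61, a ratio of 1.83 (1.32 to 2.60). Other AT2 cells had 0.221 in NAPH and 0.111 in Control, 2.0 times (1.67 to 2.41). The high cells were 12.3 times (10.8 to 13.9) above the other AT2 cells in NAPH and 14.6 times (9.97 to 20.8) in Control. The 2 intervals overlap, and the difference between these ratios was not tested. The median of all genes was taken off in NAPH and not in Control, and the NAPH ratio without this was 13.3. After thinning, 31.0% of high AT2 cells in NAPH (23.8 to 38.9%) and 29.6% in Control (13.8 to 50.2%) had a Thbs1 UMI, against 5.47% and 3.22% of other AT2 cells. Unthinned, the shares were 44.5% and 48.2% of high cells, and 0.797% and 0.223% of immune cells had a Thbs1 UMI after thinning. The level was uneven among cells, as 5 cells held 29.9% of the NAPH high-cell UMIs and one cell held 38.

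Along the summed Areg and Sprr1a level, Thbs1 in NAPH AT2 cells was 0.134 where both were 0, 0.244 up to 2.5, 0.926 from 2.5 to 5, 0.812 from 5 to 7.5, 1.99 from 7.5 to 15 and 7.02 (6.27 to 7.85) at 15 or more. Control AT2 cells had 0.0841, 0.233 and 0.533 in the first 3 bins, and the last 3 bins held 15, 8 and 4 cells. The step thus began below the threshold of 5. Airway cells differed by library: Thbs1 was 2.47 times (1.59 to 3.98) higher in NAPH ciliated cells, with 112 UMIs in NAPH and 25 in Control. In secretory cells it had 53 UMIs in NAPH and 30 in Control, 5.36 times (3.36 to 8.69) higher, and 13 of the 30 Control UMIs were in the 1 Control cell with Areg and Sprr1a of at least 5. Without it, the ratio was 9.45 (5.39 to 17.4), on 53 UMIs in NAPH and 17 in Control. This step was chosen after the values were seen and took cells from Control only. In NAPH secretory cells 5 cells held 37.7% of the Thbs1 UMIs.

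**Figure D2:**
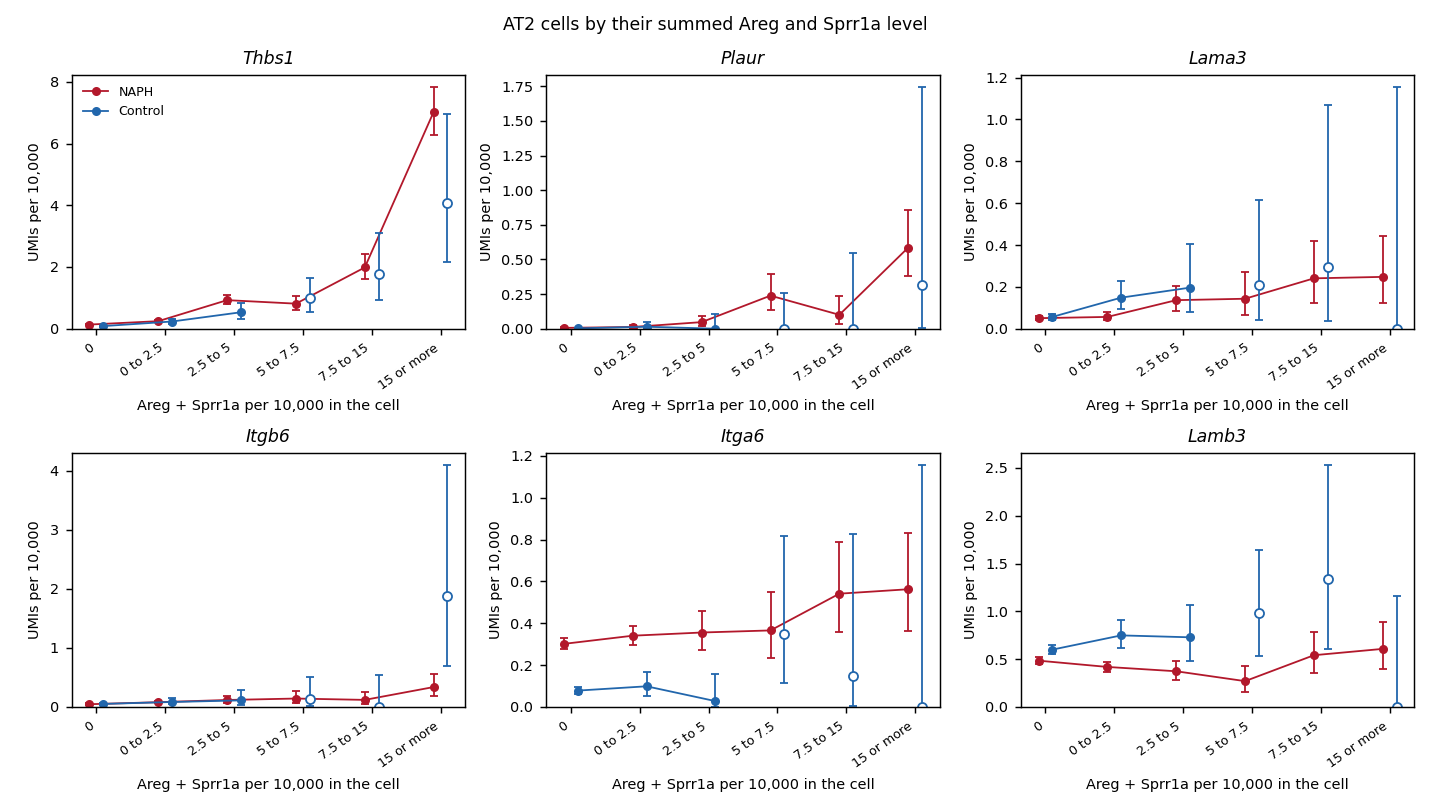
Level of 6 genes (UMIs per 10,000, linear axis from 0) in AT2 cells by their summed Areg and Sprr1a level, with NAPH (red) left of Control (blue) and exact 95% Poisson intervals. Open points are bins of fewer than 20 cells and are not joined. Thbs1 in NAPH goes to 7.02 in the last bin, while Lamb3 stays between 0.270 and 0.608.

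Fn1 was mainly an immune-gate gene in this sort. Immune cells had 357 Fn1 UMIs in NAPH and 141 in Control, levels of 0.852 and 0.374, in 9.56% and 9.35% of the thinned cells. Of all Fn1 UMIs, 357 of 479 in NAPH and 141 of 224 in Control lay in that gate. Other AT2 cells had 20 and 19 UMIs, levels of 0.00855 and 0.0136, a ratio of 0.631 (0.320 to 1.25), under the immune level. Secretory cells had 34 UMIs in NAPH and 57 in Control, 1.81 times (1.15 to 2.81) higher in NAPH, and ciliated cells had 9 and 0 UMIs. The part of free immune-cell RNA in the epithelial Fn1 counts was not tested.

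Plaur RNA was sparse in epithelium, and in NAPH AT2 and ciliated cells most of it lay in cells at or above the Areg and Sprr1a threshold. In AT2 cells it had 46 UMIs in the NAPH high cells and 1 in the Control high cells, levels of 0.293 (0.214 to 0.391) and 0.0413 (0.00104 to 0.230). Other AT2 cells had 25 and 5 UMIs, or 0.0107 and 0.00357. Within NAPH the high cells were 25.2 times (15.2 to 42.9) above the other AT2 cells, and 5 cells held 54.4% of the UMIs of the high cells. Immune cells had 0.203 in NAPH and 0.369 in Control, so the NAPH high AT2 cells lay near the immune level of their library. The immune markers in those AT2 cells summed to 0.185 per 10,000, and in NAPH immune cells to 59.6. In NAPH ciliated cells Plaur had 32 UMIs and in Control ciliated cells 1, a ratio of 17.7 (2.95 to 719). After thinning 6.37% (3.44 to 10.7%) of NAPH ciliated cells and 0.518% (0.0131 to 2.85%) of Control ciliated cells had one. In secretory cells it was 2.02 times (1.05 to 3.81) higher in NAPH, on 18 and 27 UMIs.

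Its ligand gene Plau had no UMI in the 5 epithelial gates of either library. In other AT2 cells that allows at most 0.00128 UMIs per 10,000 in NAPH and 0.00214 in Control, at 3 counts over the pool, and in ciliated cells 0.0152 and 0.0254. The 12 Plau UMIs of gated cells were in the immune gate, 6 in NAPH and 6 in Control, and 1 more was in an ungated NAPH cell. In this sort, the receptor RNA was thus detected in epithelial pools in which the urokinase RNA was not detectable.

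**Figure D3:**
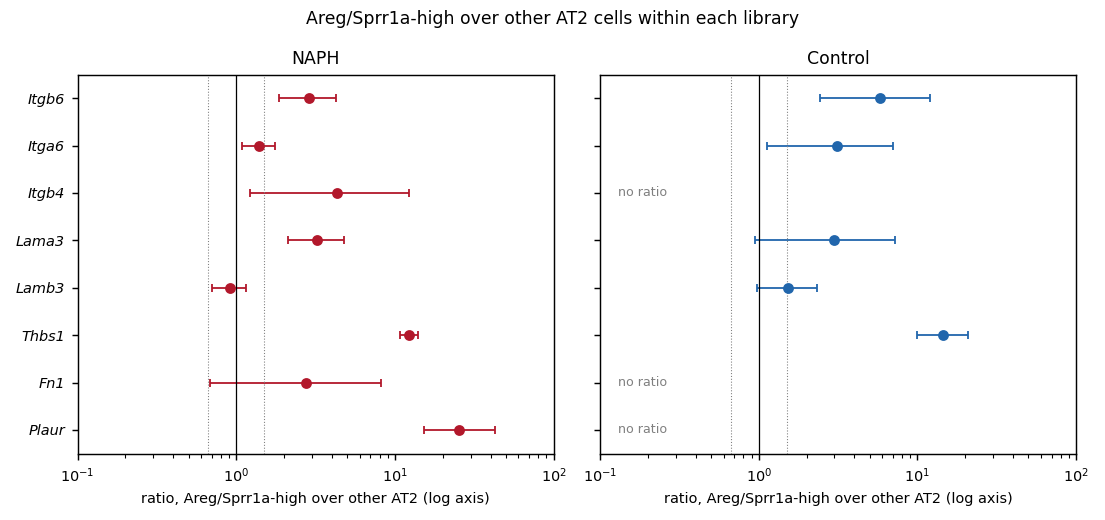
Ratio of Areg/Sprr1a-high over other AT2 cells for 8 genes, in NAPH (left, red) and Control (right, blue), on a log axis, with exact conditional 95% Poisson intervals. Dotted lines mark 1.5 times in either direction, and "no ratio" marks genes under 10 UMIs or with a pool at 0. Thbs1 is at 12.3 in NAPH and 14.6 in Control, and Lamb3 at 0.908 and 1.54. The median of all genes was taken off in NAPH only.

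Ciliated cells were split at the same Areg and Sprr1a threshold, a step chosen after the values were seen, because Areg itself was 4.63 per 10,000 in NAPH ciliated cells and 0.653 in Control ones. The NAPH library held 65 ciliated cells at or above the threshold and 139 below, and Control held 2 and 191. Plaur had 29 UMIs in the 65 high NAPH cells, 3 in the 139 other NAPH cells and 1 in the 191 other Control cells, levels of 0.481 (0.322 to 0.691), 0.0218 (0.00450 to 0.0638) and 0.00855. Thbs1 stood at 0.747, 0.488 and 0.205, and Itgb4 at 1.63 (1.32 to 1.98), 0.917 (0.764 to 1.09) and 0.615 (0.482 to 0.775). Below the threshold Thbs1 was 2.20 times (1.36 to 3.67) and Itgb6 4.20 times (1.20 to 22.5) higher in NAPH, while the Itgb4 ratio was 1.38 (1.02 to 1.87) and no longer reached 1.5. Itga6 did not go with the split, at 0.249 in the high and 0.298 in the other NAPH ciliated cells.

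**Figure D4:**
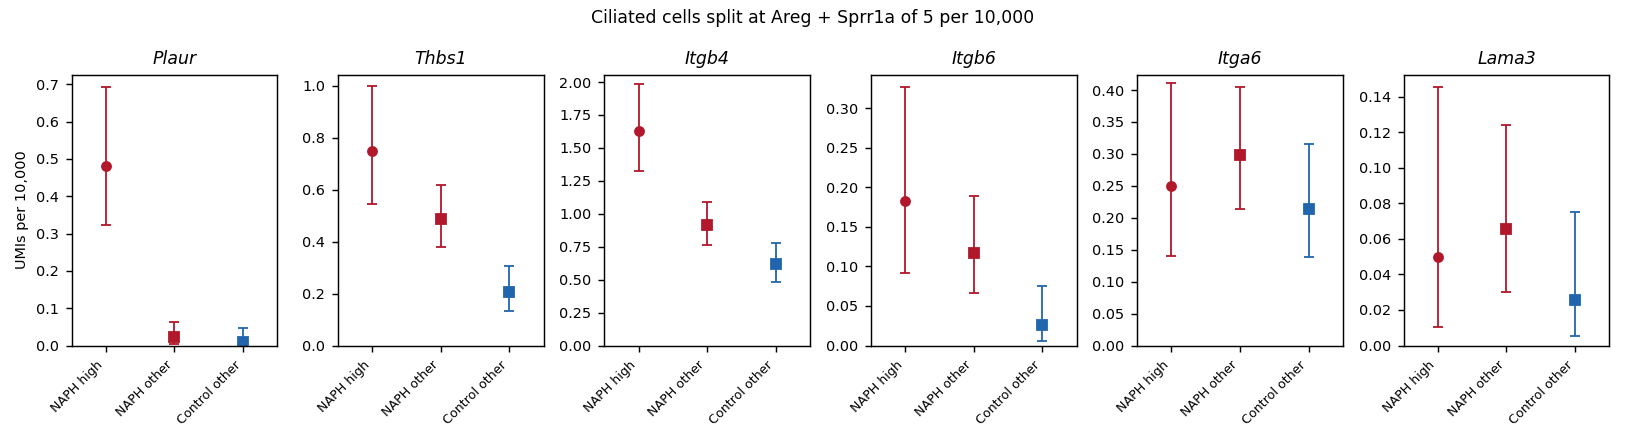
Level of 6 genes (UMIs per 10,000, linear axis from 0) in ciliated cells of NAPH with Areg and Sprr1a at or above 5 (red circles), the other NAPH cells (red squares) and the other Control cells (blue squares), with exact 95% Poisson intervals. Plaur is at 0.481 in the first group and at 0.0218 and 0.00855 in the others.

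Counted over the 9 genes, a gene was called where pooled levels differed by at least 1.5 times and both pools held 10 UMIs or more together, without regard to the interval. A gene could thus pass the 10 UMIs through 1 pool alone. Since the members and gates were chosen with earlier results of these data known, the shares of all genes are given for description only. Ratios are taken relative to the median of all genes where it lies over 0.1 from 0 on the log2 scale, as it did in secretory cells (0.61), ciliated cells (0.11) and the split within NAPH (0.12). In other AT2 cells, 3 of the 8 members with 10 UMIs were higher in NAPH (Itga6, Thbs1, Plaur), against 11.7% of all 13059 genes tested, and 1 was lower (Fn1), against 7.99%. In Areg/Sprr1a-high AT2 cells 3 of 6 were higher (Itga6, Thbs1, Plaur), against 22.6% of all genes, and 2 lower (Itgb6, Lamb3), against 18.4%. Of the higher ones, Itga6 and Plaur had 75 and 46 UMIs in NAPH and 6 and 1 in Control, and so passed through the NAPH pool. In secretory cells 5 of 7 were higher (Itga6, Lamb3, Thbs1, Fn1, Plaur), against 14.2%, and 0 lower, against 14.4%. Of these, Fn1 and Plaur lay under their immune-cell levels in both libraries, and Lamb3 did so in Control. With no median taken off, 52.2% of all genes were higher and 4.87% lower in NAPH secretory cells, with 6 members higher. With gate genes and mitochondrial genes left out of the totals, also with no median taken off, 11.8% were higher and 17% lower, with 5 members higher. In ciliated cells 6 of 7 were higher (Itgb6, Itgb4, Lama3, Lamb3, Thbs1, Plaur), against 17.5%, and 0 lower, against 11.5%. Of these, Lamb3 and Plaur lay under their immune-cell levels in both libraries. Itgb6, Lama3, Lamb3 and Plaur had 27, 12, 14 and 32 UMIs in NAPH and 3, 3, 2 and 1 in Control, and so passed through the NAPH pool. After thinning 4 members were higher in ciliated cells, against 19.1% of all genes. Among genes of at least 30 UMIs 4 members were higher, against 17.8%. In basal cells 1 of 5 was higher (Fn1, on 10 UMIs in NAPH and 1 in Control), against 26.5%, and 0 lower, against 20.5%.

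Between the 2 kinds of AT2 cell, 6 of 8 members were higher in the high cells of NAPH (Itgb6, Itgb4, Lama3, Thbs1, Fn1, Plaur), where Itgb4 and Fn1 had 5 and 4 UMIs, against 14.7% of all genes, and 0 lower, against 11.4%. In Control 5 of 7 were higher (Itgb6, Itga6, Lama3, Lamb3, Thbs1), against 29.1%, and 0 lower, against 11.3%. Lamb3 was called there at 1.54, with a median log2 of 0.0997 that was not taken off. With only cells in exactly 1 gate the Control median was 0.1055 and was taken off, and 4 members were higher, against 25.5% of all genes. With edgeR's TMM scaling the Control split of all genes was 18.1% higher and 19.7% lower, and 4 members were higher. Itgb4 and Fn1 were at 0 in the 27 Control high cells, where a 0 was set to 3 UMIs, and were not called. The median log2 ratio of the members tested was 1.60 in NAPH and 1.58 in Control, and over all genes it was 0 after the median was taken off in NAPH and 0.10 in Control. The median for NAPH over Control was 1.02 in secretory, 1.31 in ciliated, -0.04 in other AT2, 0.43 in high AT2 and 0 in basal cells. The AT2 pools enter both kinds of comparison. The members and gates were chosen with earlier results of these data known. The member counts set against the shares of all genes are thus a description. They do not test whether the members differ from other genes.

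**Figure D5:**
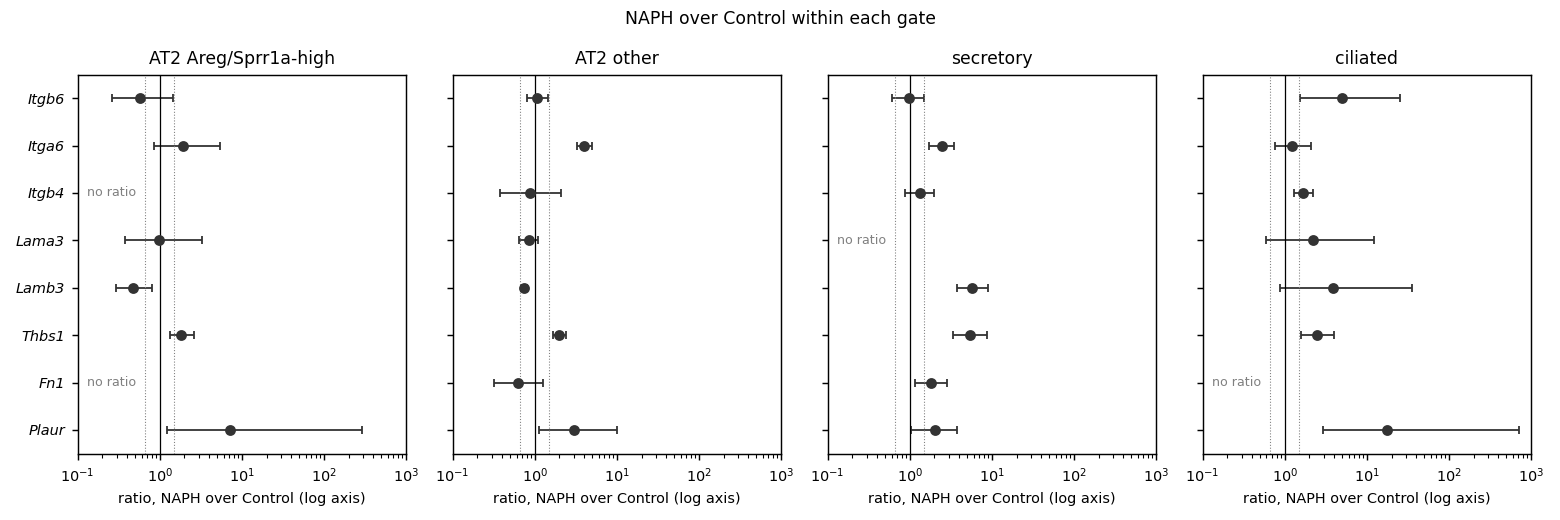
Ratio of NAPH over Control for 8 genes in 4 gates on a log axis, with exact conditional 95% Poisson intervals. Dotted lines mark 1.5 times in either direction, and "no ratio" marks genes under 10 UMIs or with a pool at 0. Itga6 is at 4.0 in other AT2 cells and Plaur at 17.7 in ciliated cells.

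Genes of the same pathways were read from 7 lists. These lists overlap the 9 genes, with 4 of them in the hemidesmosome list and 3 in the integrin list. The laminin, plasminogen, TGF-beta and provisional matrix lists hold 2 each, and the protease list holds 0. The list counts therefore include those members again and are not separate from the counts above. The lists too were chosen with earlier results of these data known, so their counts are a description and not a test. In other AT2 cells the list medians of the log2 NAPH over Control ratio lay between -0.08 for integrins and 0.29 for provisional matrix genes, and the median over all genes was 0.09. Of the 25 laminin and basement membrane genes, 10 of 17 with 10 UMIs were higher and 2 lower in NAPH secretory cells, against 14.2% and 14.4% of all genes, at a median log2 ratio of 0.67. In ciliated cells 9 of 15 were higher and 2 lower, against 17.5% and 11.5%, at a median of 0.71, and the median over all genes was 0 in both gates. Sparc, a collagen-binding matrix protein, was 10.3 times (8.10 to 13.3) higher and Npnt, nephronectin, 5.74 times (3.80 to 8.79) higher in NAPH secretory cells, the gate in which AT2 markers were also higher. The part of AT2 RNA in these ratios was not tested. Sparc stood at 2.26 in Control other AT2 cells, and its NAPH over Control ratio was 0.637 (0.515 to 0.792) in high AT2, 0.456 (0.235 to 0.876) in ciliated and 0.413 (0.191 to 0.969) in basal cells. In other AT2 cells 1 of 17 was higher and 2 lower, against 11.7% and 7.99% of all genes. Col4a4, a type IV collagen chain, was lower in NAPH, at 0.127 against 0.262 in Control, a ratio of 0.485 (0.415 to 0.567). Of the 11 hemidesmosome genes, 1 of 8 was higher (Itga6) and 1 lower in other AT2 cells, a share near that of all genes: Dst, the hemidesmosome plaque protein dystonin, at 0.294 in NAPH and 0.490 in Control, a ratio of 0.600 (0.539 to 0.668).

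Among 27 integrins, 3 of 21 were higher and 4 lower in other AT2 cells, against 11.7% and 7.99% of all genes, so the higher count is near the share of all genes. Itga7, another laminin-binding alpha chain, had 1168 UMIs in NAPH and 142 in Control, 4.93 times (4.14 to 5.91) higher, and Itgb3, a partner of Itgav, was 2.94 times (1.52 to 6.24) higher on 54 and 11 UMIs. Itga7 was also 1.83 times (1.35 to 2.46) higher in NAPH secretory cells. In ciliated cells 6 of 12 integrins were higher and 1 lower, against 17.5% and 11.5% of all genes. In the TGF-beta list, 4 of 18 genes were higher and 2 lower in other AT2 cells, against 11.7% and 7.99% of all genes. In secretory cells 9 of 18 were higher and 2 lower, against 14.2% and 14.4%, and in ciliated cells 6 of 12 were higher and 0 lower, against 17.5% and 11.5%. Tgfb1, the ligand, was 2.34 times (1.89 to 2.92) higher in other AT2 cells on 421 and 108 UMIs. Cyr61, a matricellular protein, stood at 0.980 in the high and 0.0851 in the other NAPH AT2 cells, 10.6 times (8.55 to 13.2), and was 11.3 times (6.02 to 19.8) higher in the high cells of Control. In ciliated cells Cyr61 had 45 UMIs in NAPH and 1 in Control.

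Of the 16 plasminogen system genes, 3 of 10 were higher and 2 lower in other AT2 cells, against 11.7% and 7.99% of all genes. Serpine2, a secreted inhibitor of urokinase and thrombin, had 1971 UMIs in NAPH and 494 in Control, 2.39 times (2.17 to 2.65) higher. In ciliated cells Serpine2 went the other way, at 1.40 in NAPH and 1.97 in Control, a ratio of 0.654 (0.547 to 0.782). S100a10, which with annexin A2 forms a plasminogen receptor, was 1.99 times (1.84 to 2.15) higher in high than in other AT2 cells of NAPH and 2.47 times (2.12 to 2.88) in Control. In the provisional matrix list, 4 of 16 were higher and 2 lower in other AT2 cells, against the same shares. Fgg and Fga, fibrinogen chains made mainly by liver, had 326 and 40 UMIs in NAPH other AT2 cells and 6 and 2 in Control. In the protease list, Adam8, a metalloprotease, was 3.97 times (2.86 to 5.65) higher in NAPH ciliated cells on 295 and 41 UMIs, and 8 of 13 members were higher and 0 lower there, against 17.5% and 11.5% of all genes.

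Likeness of pattern was measured as Pearson's r of log2(UMIs per 10,000 + 0.01) over the 12 pools of gate and library, among 12951 genes, and is a description without a test, since pools share libraries and depth. Thbs1 was most like Areg (r 0.964), a gate gene of the split. Areg sets the high and the other AT2 pools, so this r is in part fixed by how the pools were made. Itgb6 was most like Rassf6 (0.972) and Epha2 (0.957). Itgb4 was most like Sorbs2 (0.985), Lamb3 like Nt5c3b (0.967), and Itga6 like Eny2 (0.946). Fn1 was most like Cotl1 (0.966), Plaur like Stx11 (0.923) and Lama3 like Ehd2 (0.946). Plau had too few UMIs to be matched. Within the thinned NAPH high AT2 cells, 28 of 155 had UMIs of 2 or more of the 9 genes, and 112 of 2360 other NAPH AT2 cells did. These were 18.1% and 4.75% of the NAPH cells, and in Control 8 of 27 high cells (29.6%) and 46 of 1773 other AT2 cells (2.59%) did. The shares that the single genes would give if they were independent were not computed. These values therefore do not show that the genes go together in the same cells.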

How the data were processed

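Each library was deposited as a sparse matrix of unnormalized UMI counts, genes by barcodes. Per the submitters' processing notes the authors used Cell Ranger and mm10, and no source used here states its version, its settings or how cells were called. The NAPH library held 3685 barcodes with 38497783 UMIs (median 9417) and the Control library 3298 with 41699755 (median 8304), and 14 barcodes occurred in both. Barcodes under 500 genes or 1000 UMIs or over 20% mitochondrial UMIs were left out, 4 in NAPH and 0 in Control. Scrublet's own threshold called 0.0815% and 0.243%, under 0.5%, so an expected rate of 0.8% per 1000 barcodes was used, which removed 109 and 87 cells and left 3572 in NAPH and 3211 in Control.

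UMIs were summed per gate and library. A cell counts in every gate it passes. Ratios have exact conditional Poisson intervals, and shares exact binomial (Clopper-Pearson) intervals, at 95%. A pool at 0 was set to 3 counts over the pool as a bound, and no ratio is given where both pools have 3 UMIs or fewer. Steps were tested on simulated counts. Python 3.11.15, scanpy 1.11.5, scipy 1.17.1, R 4.3.3 and edgeR 4.0.16 (TMM factors as an alternative) were used. The members, gates and lists were chosen with earlier results of these data known. List genes are named by a rule: up to 3 highest and 3 lowest called members of a list in a comparison, of which a part is printed. Results for some list genes are not reported here.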

Additional observations from a re-analysis of the deposited data

Results flagged for a closer look

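For 3 genes the NAPH over Control ratio was at least 1.5 times higher in one gate and at least 1.5 times lower in another. The difference between gates was not tested, and each ratio rests on 1 library per group.

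Itgb6 was 4.97 times higher in NAPH ciliated cells, on 27 UMIs in NAPH and 3 in Control, and its ratio was 0.578 in Areg/Sprr1a-high AT2 cells, on 30 and 8 UMIs with an interval of 0.259 to 1.46. Lamb3 was 5.80 times higher in NAPH secretory cells and 3.87 times higher in ciliated cells, on 14 and 2 UMIs. Its ratio was 0.476 in Areg/Sprr1a-high AT2 cells, on 71 and 23 UMIs, and 5 cells held 69.6% of the Control ones. Fn1 was 1.81 times higher in NAPH secretory cells and 1.72 times higher in basal cells, on 10 and 1 UMIs, with a ratio of 0.631 in other AT2 cells, on 20 and 19. In ciliated cells Lamb3 lay under its immune-cell level in both libraries, and Fn1 did so in each epithelial gate named here.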

How the results depend on the processing

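No paired analysis was possible because each group has 1 library. Of 598 log2 ratios under other settings, 578 moved by less than their interval, 19 moved further and 1 turned round: Lamb3 in Control high over other AT2 cells, 0.62 as reported and -0.011 after thinning. Some settings use the same pooled counts and could move a ratio only through the median or scaling factor taken off. The call at 2 times could not move a ratio at all. The 578 thus include ratios that were bound to stay. Of 720 levels per 10,000 UMIs, 643 moved by less than their interval and 77 further. Of 182 counts of called members, 170 stayed within 1.5 times. Higher members in Control high over other AT2 cells were 5 as reported and 3 with gate thresholds doubled or at 0.5 times. Higher members in high AT2 cells were 3 and 1 at a 2 times call, and in basal cells 1 and 0 at 2 times or at 30 UMIs. Lower members in high AT2 cells were 2 and 1 at thresholds of 0.5 times, after thinning or at 2 times. In other AT2 cells they were 1 and 0 at thresholds of 0.5 times or at 2 times, and in basal cells 0 and 1 at 0.5 times or with cells of at least 5000 UMIs. The share of high AT2 cells was 1.68% in NAPH and 0.249% in Control with thresholds doubled, and 9.02% and 2.09% at 0.5 times, against 4.34% and 0.841% of all cells as reported. With thresholds at 0.5 times other AT2 cells were 62.0% of NAPH, and with at least 5000 UMIs 67.7%, against 66.1%. Doubled thresholds gave 0.280% basal (0.560%) and 4.17% secretory cells (5.52%) in NAPH. Cells of at least 5000 UMIs gave 4.07% ciliated cells in Control (6.01%). The part of depth in these moves was not tested.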

Other observations

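The ungated cells, 150 in NAPH and 16 in Control, belong to no comparison. Their club markers summed to 236 per 10,000 UMIs in NAPH and 7.95 in Control, their AT1 markers to 29.9 and 33.2 and their fibroblast markers to 6.75 and 2.96. Thbs1 stood at 1.18 (1.01 to 1.37) in NAPH and 1.44 (0.838 to 2.30) in Control, Itgb6 at 0.280 and 0.508 (0.186 to 1.10), and Lamb3 at 0.460 and 1.02. Few cells carry the Control values: the 17 Thbs1 UMIs lay in 3 cells, the 6 Itgb6 UMIs in 1 cell and the 12 Lamb3 UMIs in 5 cells. Plaur had 24 UMIs in NAPH and 0 in Control.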
